A study of Mus musculus with 10 samples.

Results

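The genes described here are alpha-B crystallin (CRYAB) and 5 further members of the small heat shock protein family, HSPB1, HSPB2, HSPB6, HSPB7 and HSPB8. They are 6 of the 33538 human genes in the count table and were taken by Ensembl identifier: ENSG00000109846 (CRYAB), ENSG00000106211 (HSPB1), ENSG00000170276 (HSPB2), ENSG00000004776 (HSPB6), ENSG00000173641 (HSPB7) and ENSG00000152137 (HSPB8). They were chosen by their family and by the level of CRYAB, which had already been seen to be lower in oil-fed tumours of this series, so its values, fold changes and intervals by diet are a description, and no p-value is given for it or read as support. Of the 6 members, 5 passed the filter on low counts and HSPB2 did not.

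Tumours of DAOY, a human medulloblastoma cell line, were grown in the flank of female nude mice, which lack T cells and accept human grafts. The fish oil group had 4 tumours, the DHA oil group 3 and the control group on ordinary chow 3, all taken after 30 days of treatment. The labels name the oils as fish oil and DHA oil. Fish oil is taken here to be the arm of the study that combined docosahexaenoic acid (DHA) with eicosapentaenoic acid (EPA), both long-chain omega-3 fatty acids. All grafts came from 1 cell line and no group is labelled with a genetic change. The flank lies over skeletal muscle, and each sample was bulk tumour tissue that could hold host tissue as well as graft. Whether each library is a separate mouse is not stated, and p-values therefore speak of the spread between libraries, which may be technical.

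Small heat shock proteins are chaperones that share an alpha-crystallin domain, assemble into oligomers and hold partly unfolded proteins without using ATP, until other chaperones refold them or they are degraded. CRYAB is a major protein of the lens and is abundant in heart, skeletal muscle and glia, where it protects intermediate filaments such as desmin and vimentin. Several family members are strong markers of striated muscle, while HSPB1 is found in most cell types and is induced by stress.

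Poly(A) RNA was sequenced, and total counts per library ranged from 6187116 to 9588388 in fish oil, from 8428137 to 10035702 in DHA oil and from 7412470 to 9390741 in control. Levels are given as CPM, the deposited read count as a share of the TMM-scaled library total. Because CPM does not correct for transcript length, levels are compared between libraries and not between genes. The files pair no identifier with a gene name and the reference tables are of mouse. Markers of muscle, of other host cells and of the DAOY tumour itself could therefore not be picked out by name. Genes given below by identifier alone may include such markers. On the first principal component, which held 26.4% of the variance, fish oil replicates 4 and 2 stood apart from the other libraries. The 10 libraries carried between 45 and 240 CRYAB reads, 763 to 1371 HSPB1 reads, 118 to 217 HSPB6 reads, 86 to 265 HSPB7 reads and 126 to 223 HSPB8 reads.

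CRYAB was lower in every oil-fed tumour than in every control tumour. In fish oil replicates 1 to 4 it stood at 7.21, 7.02, 11.5 and 7.09 CPM. In DHA oil replicates 1 to 3 it stood at 11.5, 6.35 and 6.64 CPM. The control replicates 1 to 3 held 25.5, 22.6 and 19.8 CPM. The highest oil libraries stayed well under the lowest control, so the ranges were separate for both oils, as they were for 1.12% of all genes tested. The share was 3.74% for fish oil alone and 10.6% for DHA oil alone against control. Nothing is read from this separation, because CRYAB was chosen for being lower with oil. The mean level ± SD was 8.20 ± 2.18 CPM over the 4 fish oil tumours, 8.15 ± 2.87 CPM over the 3 DHA oil tumours and 22.6 ± 2.84 CPM over the 3 control tumours. In bulk tissue, fewer cells that express the gene and less RNA per cell cannot be told apart.

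The fitted difference was close to the same size in each oil. With both oils pooled CRYAB was 2.78-fold lower than in control, a log2 fold change of -1.47 ± 0.20 (SE; 95% interval -1.91 to -1.04). It was -1.47 ± 0.23 (SE; -1.97 to -0.97) for fish oil and -1.48 ± 0.25 (SE; -2.02 to -0.94) for DHA oil, and these values share the same 3 control libraries. Between the oils the log2 fold change of fish oil over DHA oil was 0.01 ± 0.25 (SE), with an interval of -0.51 to 0.54, which allows a difference of up to 1.45-fold higher in fish oil or a level of 0.700 of that in DHA oil. CRYAB was the 1 member among the genes called for both oils together, a group that made up 0.131% of the 16013 genes tested, and nothing is read from this because the gene was chosen for it. Without control replicate 1, the library highest in CRYAB, the log2 fold change for both oils was -1.38, and the gene was no longer among those called.

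The oil-fed tumours were not even in CRYAB. Fish oil replicate 3 and DHA oil replicate 1 were both at 11.5 CPM, and the other 5 oil libraries lay between 6.35 and 7.21 CPM. The counting interval of fish oil replicate 3, from 88 reads, was 9.19 to 14.1 CPM (exact Poisson, 95%), and that of DHA oil replicate 1, from 97 reads, was 9.30 to 14.0 CPM. For fish oil replicate 1, with 45 reads, it was 5.26 to 9.64 CPM, which overlaps both. For fish oil replicate 2 it was 5.45 to 8.90 CPM, for fish oil replicate 4 it was 5.45 to 9.07 CPM, for DHA oil replicate 2 it was 4.90 to 8.10 CPM and for DHA oil replicate 3 it was 5.10 to 8.49 CPM, all under those of the higher pair. Counting error alone would give a coefficient of variation of about 12% over the 7 oil libraries, where 27.7% was seen. These intervals cover counting error alone, and reads without molecular identifiers are not independent molecules. In control the spread was 12.6%, beside 7.35% from counting.

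**Figure D1:**
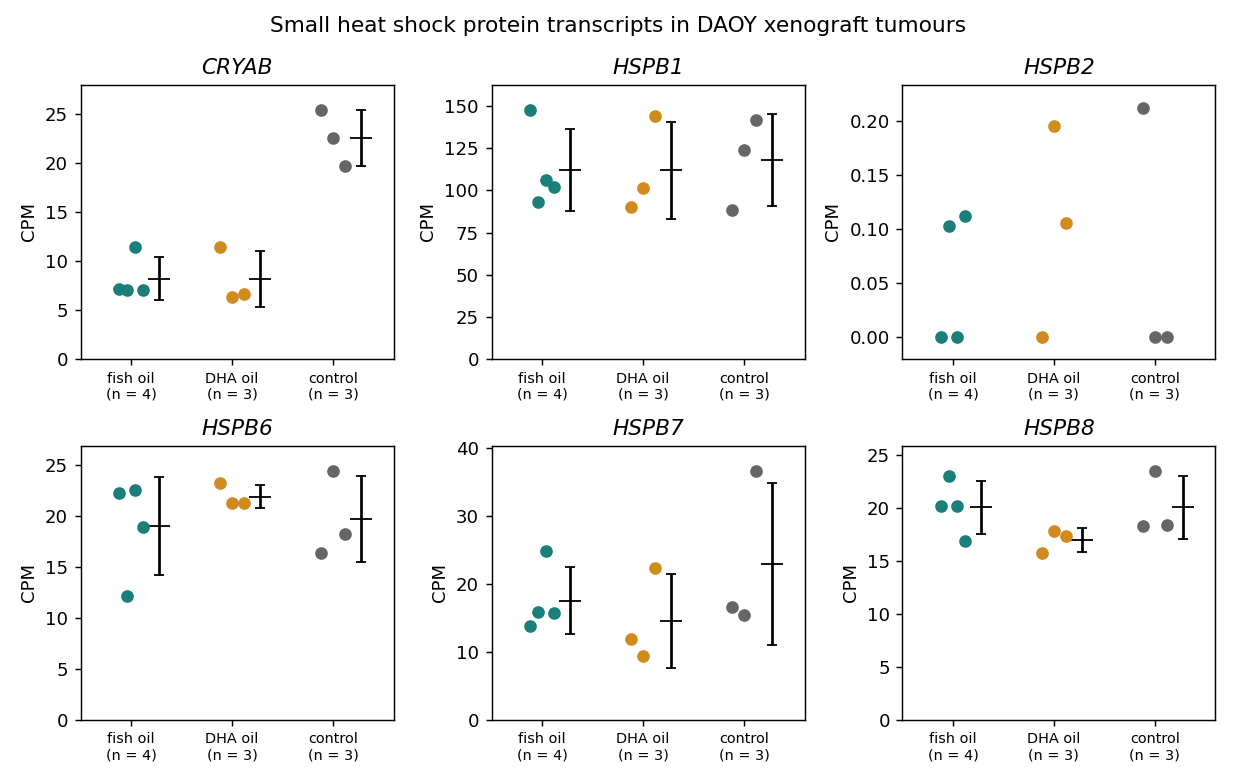
Level in CPM of each of the 6 members in every library of the fish oil, DHA oil and control groups. Points are libraries, and the bar beside them is the mean with its SD (not drawn for HSPB2, whose counts were 0 to 2 reads). CRYAB lies at 6.35 to 11.5 CPM in the oil-fed tumours and at 19.8 to 25.5 CPM in control, while the groups of the other members overlap except HSPB8 in DHA oil and control.

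HSPB1, the widely expressed member that regulates actin filaments and is phosphorylated through the p38 kinase pathway, showed no difference by diet beyond its spread. It stood at 148, 93.2, 106 and 102 CPM in fish oil, at 90.2, 101 and 144 CPM in DHA oil, and at 88.3, 124 and 142 CPM in control. Each diet held both low and high libraries, and the 3 ranges overlapped almost fully. The log2 fold change of both oils over control was -0.07 ± 0.18 (SE), with a 95% interval of -0.46 to 0.31. The lower end of that interval corresponds to 0.728 of the control level. HSPB1 has near-identical pseudogene copies in the human genome, and how reads shared with them were counted is not given in the sources used here.

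HSPB8, which works with the co-chaperone BAG3 to send damaged proteins to autophagy, was the steadiest of the tested members. Its level was 20.2, 23.0, 20.2 and 16.9 CPM in fish oil, 15.7, 17.8 and 17.4 CPM in DHA oil, and 18.2, 23.5 and 18.4 CPM in control. The 3 DHA oil libraries lay below the 3 control libraries, while fish oil overlapped both. The coefficient of variation over the 10 libraries was 13.4%, beside 7.86% from counting. The log2 fold change was -0.24 ± 0.17 (SE; 95% interval -0.60 to 0.12) for DHA oil against control, which was not called (adjusted p = 1.00, edgeR with Benjamini-Hochberg adjustment). For fish oil against DHA oil it was 0.24 ± 0.16 (SE; -0.09 to 0.58; adjusted p = 0.875, edgeR), and 3 of 4 fish oil libraries lay above all DHA oil libraries. In DHA oil against control the groups of HSPB8 did not overlap, as was so for 10.6% of all genes tested. Those of CRYAB did not overlap either, but it was chosen for being lower with oil and is not counted. For fish oil against DHA oil the groups overlapped in all 5 members tested, and 4.95% of all genes had no overlap.

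The next members are those best known from muscle. HSPB6, abundant in smooth, cardiac and skeletal muscle and phosphorylated when smooth muscle relaxes, was at 22.3, 12.2, 22.5 and 18.9 CPM in fish oil, at 23.2, 21.2 and 21.3 CPM in DHA oil, and at 16.3, 24.4 and 18.3 CPM in control. The DHA oil libraries sat close together, inside the control range, and fish oil replicate 2 was the lowest of all 10. The log2 fold change of both oils over control was 0.05 ± 0.19 (SE; 95% interval -0.35 to 0.45). Its sign was not settled, as the value was -0.08 without control replicate 1 and 0.24 without control replicate 2.

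HSPB7, known from heart and skeletal muscle, where it binds the actin cross-linker filamin C, had the highest gene-wise dispersion of the 5 tested members, once diet was fitted. It stood at 13.8, 15.8, 24.8 and 15.6 CPM in fish oil, at 11.8, 9.38 and 22.3 CPM in DHA oil, and at 16.5, 15.4 and 36.6 CPM in control. Each diet had 1 library well above its others, namely fish oil replicate 3, DHA oil replicate 3 and control replicate 3. The coefficient of variation over all libraries was 43.3%, beside 8.12% from counting (58.7% for CRYAB, whose diets differ), and its gene-wise dispersion ranked at the 93.7th percentile of all tested genes. The log2 fold change of both oils over control was -0.51 ± 0.29 (SE; 95% interval -1.14 to 0.11; adjusted p = 1.00, edgeR). Without control replicate 3 it was -0.0069.

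HSPB2, a muscle protein that binds the myotonic dystrophy kinase, was close to undetected. There were 2 reads in the 4 fish oil libraries, 3 in the 3 DHA oil libraries and 2 in the 3 control libraries, and 5 of the 10 libraries held 0. No library had more than 2 reads. A count of 0 allows up to 3 reads, and 3 reads correspond to 0.293 to 0.480 CPM over the 10 libraries. No fold change is given, as every library was under that limit. In the same libraries CRYAB had 264 reads in fish oil, 225 in DHA oil and 556 in control. HSPB2 and CRYAB are neighbours that are transcribed away from each other, and in the mouse assembly GRCm38.p6 Hspb2 is likewise the next protein-coding gene to Cryab. Human annotations also list a read-through transcript over HSPB2, and reads that fall on overlapping genes can be left out by a counter, so part of the HSPB2 signal may be missing from these counts.

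**Figure D2:**
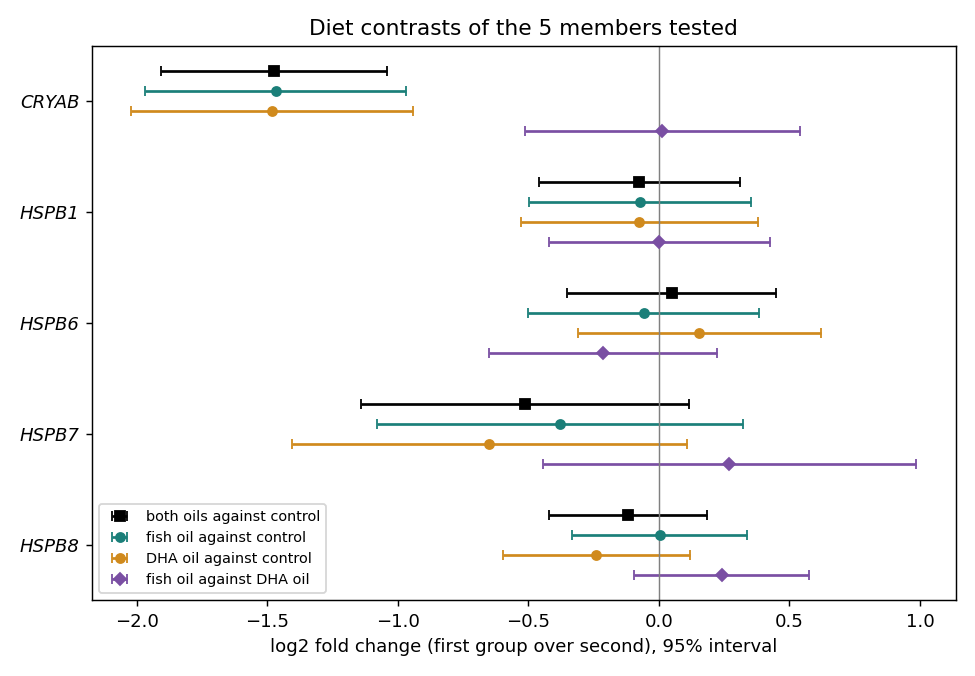
Log2 fold change with its 95% interval for each of the 5 tested members (rows) in both oils against control, fish oil against control, DHA oil against control, and fish oil against DHA oil. CRYAB lies between -1.48 and -1.47 in the 3 comparisons with control, and each interval of HSPB1, HSPB6, HSPB7 and HSPB8 spans 0.

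Over the 5 tested members, 4 had a log2 fold change under 0 with both oils and the median was -0.12, beside 49.6% of all genes under 0 and a median of 0.00159 over all genes. For fish oil against control 4 of 5 were under 0 with a median of -0.07, beside 48.5% and 0.00789 for all genes. For DHA oil against control 4 of 5 were under 0 with a median of -0.24, beside 49.2% and 0.00319 for all genes. CRYAB is among those under 0 in each comparison with control and was chosen for being lower. Nothing is therefore read from these counts and medians. The other members stood at -0.07 (HSPB1), 0.05 (HSPB6), -0.51 (HSPB7) and -0.12 (HSPB8) for both oils, each with an interval spanning 0. Of the 4 tested members other than CRYAB, edgeR's quasi-likelihood test called 0 in each comparison, and DESeq2 and limma-voom also called 0. The share of all genes called was 0.131% with both oils, 0.00624% with fish oil and 0% with DHA oil, each over control, and 0% between the oils. At an unadjusted p under 0.05 there were again 0 of these 4 members. The share of all genes there was 2.62% with both oils, 3.48% with fish oil and 2.74% with DHA oil, each over control, and 4.84% between the oils. CRYAB is left out of this count because it was chosen on these comparisons. A p that misses the threshold does not show that levels were equal. For both oils the interval of HSPB1 ran from 0.728 to 1.24 times the control level. That of HSPB8 ran from 0.747 to 1.14 times, and that of HSPB7 from 0.453 to 1.08 times.

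CRYAB was also expressed without any scaling between libraries, as reads of CRYAB per read of another member of the same library. These are the same CRYAB reads on which the gene was chosen, so a lower ratio with oil restates that choice. The ratios show only how far the difference depends on scaling and on the member used. No share over all genes was computed for them. Per read of HSPB6 there were 0.446 ± 0.117 CRYAB reads in fish oil (mean ± SD of 4 libraries), 0.369 ± 0.109 in DHA oil (3 libraries) and 1.19 ± 0.330 in control (3 libraries). The highest oil library reached 0.576 and the lowest control 0.925. Per read of HSPB8 the values were 0.412 ± 0.114 in fish oil, 0.489 ± 0.208 in DHA oil and 1.14 ± 0.225 in control (mean ± SD), again with no overlap. Per read of HSPB1 the oil libraries reached 0.127 at most and control began at 0.139, so those ranges almost met. Per read of HSPB7 the ranges overlapped, because control replicate 3 with its high HSPB7 stood at 0.540 while DHA oil replicate 1 stood at 0.970.

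**Figure D3:**
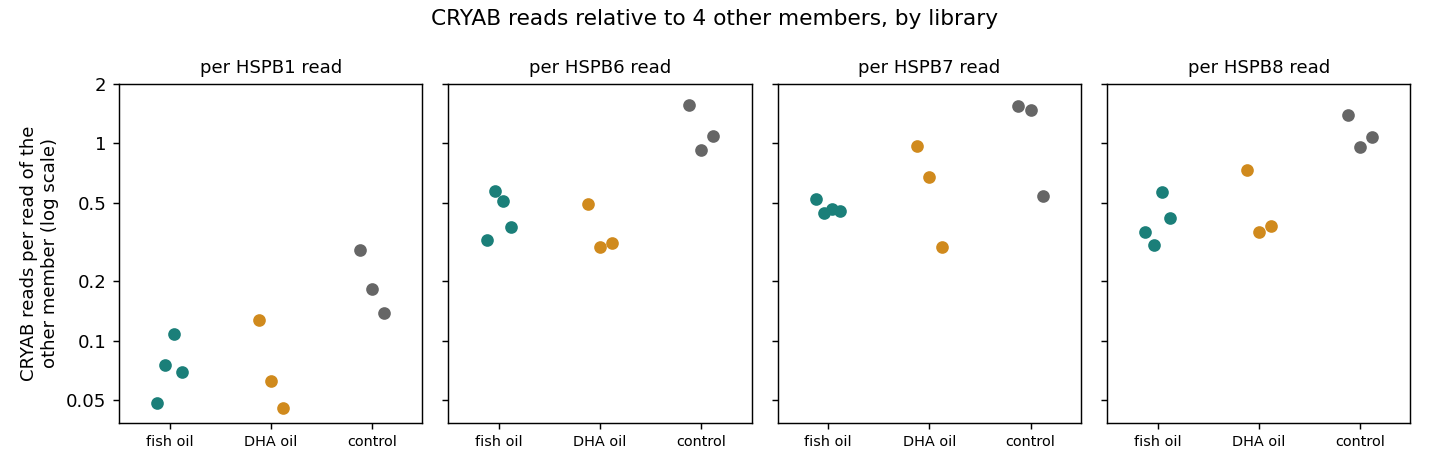
CRYAB reads per read of HSPB1, HSPB6, HSPB7 and HSPB8 in each library, on a log axis, for the fish oil, DHA oil and control groups. Ratios to HSPB1, HSPB6 and HSPB8 are lower in all 7 oil libraries than in all 3 controls, and the ratio to HSPB7 is not.

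CRYAB was also set beside the other genes called lower with both oils. These are 20 genes whose identifiers were not matched to names, so the tissues that express them were not examined. Their mean log2 CPM by library was 0.29, 0.22, 1.24 and 0.27 in fish oil, 1.90, 1.30 and 0.24 in DHA oil, and 5.47, 2.86 and 3.49 in control. They were selected in the same comparison as CRYAB, so that both are lower with oil restates the selection. Among controls the mean of the 20 genes was lowest in replicate 2, while CRYAB was lowest in replicate 3. CRYAB was there at 25.5, 22.6 and 19.8 CPM where ENSG00000101470, one of the 20, was at 60.3, 5.49 and 13.1 CPM. That gene was picked after its values were seen and does not stand for the 20. There were 0.423, 4.12 and 1.51 CRYAB reads per read of that gene in controls, beside 7.88 to 12.6 in fish oil and 3.61 to 7 in DHA oil. The oil ratios are rough, as they rest on 4 to 8 reads of that gene in fish oil and 9 to 18 in DHA oil. In the oil groups the libraries with CRYAB at 11.5 CPM were also high in the 20 genes, but DHA oil replicate 2, at 1.30, had the lowest CRYAB of all at 6.35 CPM.

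In control replicate 1, where the 20 genes stood highest, CRYAB was also at its highest (25.5 CPM), and HSPB2 had 2 reads, its highest count, which DHA oil replicate 2 also had. HSPB6 (16.3 CPM) was there at the lowest of the controls. HSPB7 (16.5 CPM) lay between control replicate 2 (15.4 CPM) and control replicate 3 (36.6 CPM). Muscle content was not scored, because no marker symbol could be matched to an identifier. What part of the CRYAB reads came from tumour cells and what part from muscle or other host tissue was not tested.

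**Figure D4:**
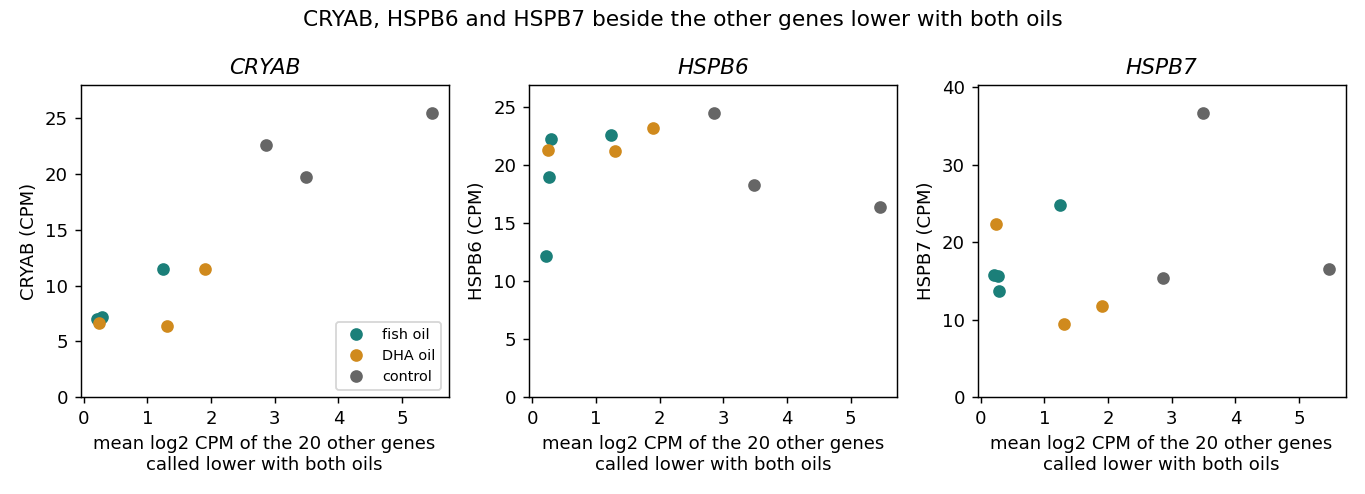
Level in CPM of CRYAB, HSPB6 and HSPB7 against the mean log2 CPM of the 20 other genes called lower with both oils, 1 point per library, coloured by diet. The controls lie at 2.86 to 5.47 on the horizontal axis, where CRYAB is at 19.8 to 25.5 CPM, HSPB6 at 16.3 to 24.4 CPM and HSPB7 at 15.4 to 36.6 CPM.

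No pair of the other tested members was related past the threshold. Over the 6 pairs of HSPB1, HSPB6, HSPB7 and HSPB8 in the 10 libraries, Pearson's r of log2 CPM ran from -0.24 (HSPB6 and HSPB8) to 0.47 (HSPB1 and HSPB7). The pair of HSPB1 and HSPB7 had r = 0.47 (p = 0.174, adjusted over the 6 pairs 0.795) and Spearman's rho = 0.24 (p = 0.512, adjusted 0.617), by a two-sided permutation test of 100000 resamples. Without the 2 libraries farthest from the median of HSPB1, r was 0.65 (exact permutation p = 0.0828, adjusted 0.497). The pair of HSPB6 and HSPB8 turned to 0.45 on leaving out the 2 libraries farthest from the median of HSPB6. CRYAB was left out of these tests because its levels in the oil and control libraries lie in separate sets. With the mean of each diet removed, its r was -0.45 with HSPB1, 0.33 with HSPB6, 0.02 with HSPB7 and -0.19 with HSPB8. These values describe 10 libraries, carry no test and lean on the oil libraries that lay apart in CRYAB.

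Among the 14466 other genes whose log2 CPM averaged 1 or more, the patterns most like CRYAB over the 10 libraries had a Pearson r of 0.94 (ENSG00000180209) and 0.93 (ENSG00000075413), and the fifth had 0.89. Of these 5 genes, 3 were among the genes called lower with both oils, where 0.131% of all genes tested were called in either direction. CRYAB was chosen for its difference by diet, so genes like it are drawn towards those called. Nothing is read from this overlap. ENSG00000180209 stood at 1.13 to 2.48 CPM in fish oil, 0.316 to 3.67 CPM in DHA oil and 9.68 to 74.2 CPM in control, a far wider range than CRYAB. ENSG00000075413 differed by much less, at 127 to 138 CPM in fish oil, 128 to 138 CPM in DHA oil and 147 to 156 CPM in control. The 2 genes most like HSPB1 reached r = 0.92 each, and the 2 most like HSPB8 reached 0.91 and 0.88. These values describe likeness over libraries that share their diets and carry no test.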

How the data were processed

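RNA from 10 DAOY flank tumours was profiled with a stranded poly(A) kit and single 75 bp reads, per the labels' protocols. The deposited table holds raw counts, whole reads per human Ensembl gene, with no sign of scaling by the authors. Per the submitters' processing notes, the tools were STAR and HTSeq 0.9.0 and the genome build was GRCh38. Not given in the sources used here are the annotation release, the strand setting, how shared reads were treated and whether mouse reads were removed.

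Groups follow the sample titles and treatment labels. The filter filterByExpr (minimum count 10) left 16013 of 33538 genes. After TMM scaling they were tested in edgeR 4.0.16 under R 4.3.3 (quasi-likelihood F test, 1 fit of all 10 libraries, diet as factor, Benjamini-Hochberg adjustment over all genes tested, threshold 0.05). The SE is the absolute log2 fold change over the square root of F, and 95% intervals use the total degrees of freedom (median 14.7). The prior count of log2 CPM was 2. The procedure was tested on simulated data. No pair of libraries agreed within sampling noise (chi-square per degree of freedom at least 4.75). Alternatives were other scaling factors, no filter, DESeq2 1.42.0, limma-voom (limma 3.58.1) with quality weights, only the groups compared, a replicate block and leaving out each library.

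The members and lists were chosen with earlier results of these data known. The members' names come from the rule that defined them. Of the 142 symbols in 13 further lists of chaperones and cell type markers, 0 could be matched, since the reference tables cover mouse and matched 0 identifiers, so those lists gave no result. Named genes are the 6 members and the genes most like CRYAB, of which at most 2 identifiers are printed. ENSG00000101470 was added after its values were seen. The human sequences of the members were not used here.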

Additional observations from a re-analysis of the deposited data

Results flagged for a closer look

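In the fish oil group, the 1 group with 4 libraries, each of the 5 tested members was examined for a library far from the others. CRYAB in fish oil replicate 3 was at 11.5 CPM, against 7.02 to 7.21 CPM in the other 3. It lay apart by 0.958 of the group's range, above Dixon's critical value for 4 samples. For 1 gene, chance passes that value in about 1 of 20 groups, and more often where 5 genes are examined. The same library was also the highest of its group in HSPB7, at 24.8 CPM, where the gap was 0.816 of the range and did not pass. Its mean log2 CPM of the 20 other genes called lower with both oils was 1.24, against 0.22 to 0.29 in the other 3 fish oil libraries.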

How the results depend on the processing

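CRYAB stayed lower with both oils, with fish oil and with DHA oil in every alternative run. It was chosen on these comparisons, so its calls below describe only how far they depend on processing and are not support. With both oils against control its log2 fold change lay between -1.48 and -1.37 over 7 alternatives and between -1.63 and -1.38 with 1 library left out. The count of members called there was 1, was 0 to 1 with 1 library left out (0 without control replicate 1), and was 0 with fish oil replicates 2 and 4 both left out (log2 fold change -1.37), chosen after seeing the data. Against control, DHA oil had 0 members called, or 1 (CRYAB) with no filter, in DESeq2 and in limma-voom, and 0 to 1 with 1 library left out (1 without DHA oil replicate 1). Fish oil had 0, or 1 (CRYAB) with no filter, in DESeq2 and in a fit of only those groups, and 0 to 1 with 1 library left out (1 without DHA oil replicate 1 or control replicate 3). Fish oil against DHA oil had 0 throughout. Over all genes, both oils gave 21 calls, 76 with no filter, 12 with the block, 1 in limma-voom and 3 to 35 with 1 library left out. DHA oil gave 0 (57 with no filter, 11 in DESeq2, 3 in limma-voom, 1 with the block, 0 to 5 with 1 library left out, highest without control replicate 2). Fish oil gave 1 (56, 20, 0, 0 and 0 to 22, highest without control replicate 2, and 7 in a fit of only those groups).

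Members with values near 0 changed sign. HSPB8 in fish oil against control (0.0028) was -0.0010 with RLE scaling, -0.0059 with no filter and -0.00026 in DESeq2. HSPB1 in fish oil against DHA oil (0.0018) was -0.0020 with RLE, -0.0013 with upper-quartile scaling, -0.0072 with no filter, -0.00077 in DESeq2 and -0.00063 in a fit of only those groups. With fish oil replicates 2 and 4 left out, HSPB1 was 0.015 for both oils and 0.10 for fish oil, and HSPB6 was 0.19 for fish oil over control and 0.034 over DHA oil. HSPB6 against HSPB8 reversed to r = 0.45. With 1 library left out the values for both oils ran from -0.25 to 0.077 for HSPB1, -0.077 to 0.24 for HSPB6 and -0.19 to 0.012 for HSPB8. In fish oil over control the ranges were -0.25 to 0.077 for HSPB1, -0.18 to 0.13 for HSPB6, -0.59 to 0.13 for HSPB7 and -0.073 to 0.13 for HSPB8. For DHA oil against control HSPB1 ran from -0.30 to 0.077, and for fish oil against DHA oil CRYAB ran from -0.19 to 0.33 and HSPB1 from -0.16 to 0.23. The cause was not tested.

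No pairing by replicate number was seen: deviations of same-numbered libraries correlated at -0.17 to 0.18, beside -0.15 to 0.18 for libraries of other numbers. With so few libraries these values do not show that pairing is absent. With the replicate block the CRYAB log2 fold change for both oils was -1.45. The gene was among those called there, which is not read as support. The fit with a muscle score was not run, as its symbols were not matched, and no correlation with CRYAB over the oil libraries is given, because 2 of the 7 values lay apart from the rest. HSPB2 lies under the limit set by depth.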
